A study of Homo sapiens with 2 samples.

Results

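The 8 genes described here encode secreted hormones and vascular peptides: FGF21, GDF15, ADM2, ADM, STC2, VEGFA, APLN and EDN2. They were picked by symbol, with their values in these libraries already known, and all 8 were found among the 25268 gene symbols listed in each library. Expression was given as FPKM (read fragments corrected for the length of the transcript and the size of the library) from mRNA sequencing of C4-2B MDVR. This prostate cancer cell line, derived from LNCaP, is castration-resistant and tolerates enzalutamide, a drug that blocks the androgen receptor. Of the 2 libraries, 1 came from cells given Indocin at 20 µM for 3 days, and 1 from cells given the vehicle DMSO for 3 days. Both cultures were kept in 20 µM enzalutamide, so no library here is from cells without that drug. Indocin is indomethacin, a nonsteroidal anti-inflammatory drug (NSAID) that blocks the cyclooxygenases and, among other targets, the androgen-forming enzyme AKR1C3. The study asked how the transcriptome of these resistant cells differed after the drug. With 1 library per group, no difference below has a replicate check, an error or a test. In a bulk culture, more RNA per cell and more cells that express a gene also cannot be told apart.

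These proteins act at a distance or on vessels. FGF21 and GDF15 are endocrine signals that stressed tissues release: FGF21 acts on metabolism through an FGF receptor and the co-receptor beta-klotho (KLB), and GDF15 lowers food intake through GFRAL and RET in the hindbrain. FGF21, GDF15, ADM2 and STC2 are known to be induced by the integrated stress response, the pathway in which kinases phosphorylate eIF2alpha and the transcription factor ATF4 accumulates. GDF15 is also called NSAID-activated gene. VEGFA drives vessel growth, adrenomedullin (ADM), its relative adrenomedullin 2 (ADM2, intermedin) and apelin (APLN) relax vessels, and endothelin 2 (EDN2) constricts them. Several of this group, ADM and VEGFA among them, are well known as genes induced by low oxygen.

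Promoter sequences are shown for the 3 genes with the highest ratios and for the 2 with lower values in the Indocin library, because the stress and oxygen pathways above act through short motifs in DNA. The RefSeq promoter table (GRCh38.p14) had an entry for 7 of the 8 genes, all but VEGFA. Each entry spanned 300 bases, 250 before the start of the gene and 50 after it, and the 250 upstream bases are printed 5′ to 3′ on the strand of the gene. Capitals mark a match to TGATGNAA on either strand (the core of the element bound by CCAAT/enhancer-binding proteins with ATF4) or to TATAA on the strand of the gene (the TATA box).
FGF21 (chr19:48755274-48755523, plus strand): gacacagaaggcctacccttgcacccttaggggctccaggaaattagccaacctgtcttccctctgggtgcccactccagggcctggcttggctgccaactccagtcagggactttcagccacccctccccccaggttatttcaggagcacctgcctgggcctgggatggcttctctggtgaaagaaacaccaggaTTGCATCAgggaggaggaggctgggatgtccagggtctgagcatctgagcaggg
GDF15 (chr19:18385908-18386157, plus strand): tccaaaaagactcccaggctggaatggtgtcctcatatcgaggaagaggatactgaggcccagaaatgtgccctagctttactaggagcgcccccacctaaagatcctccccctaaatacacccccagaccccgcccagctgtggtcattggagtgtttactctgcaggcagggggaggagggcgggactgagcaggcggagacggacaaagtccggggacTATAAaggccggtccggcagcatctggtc
ADM2 (chr22:50481293-50481542, plus strand): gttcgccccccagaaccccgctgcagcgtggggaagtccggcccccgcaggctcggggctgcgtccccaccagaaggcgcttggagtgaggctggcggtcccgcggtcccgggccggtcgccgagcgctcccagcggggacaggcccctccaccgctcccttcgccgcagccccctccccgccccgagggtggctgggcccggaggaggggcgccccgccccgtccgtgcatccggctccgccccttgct
APLN (chrX:129654957-129655206, minus strand): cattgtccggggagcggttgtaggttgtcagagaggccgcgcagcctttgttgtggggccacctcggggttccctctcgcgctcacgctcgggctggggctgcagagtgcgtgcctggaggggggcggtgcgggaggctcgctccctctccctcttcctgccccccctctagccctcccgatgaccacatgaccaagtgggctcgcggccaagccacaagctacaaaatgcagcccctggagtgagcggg
EDN2 (chr1:41484684-41484933, minus strand): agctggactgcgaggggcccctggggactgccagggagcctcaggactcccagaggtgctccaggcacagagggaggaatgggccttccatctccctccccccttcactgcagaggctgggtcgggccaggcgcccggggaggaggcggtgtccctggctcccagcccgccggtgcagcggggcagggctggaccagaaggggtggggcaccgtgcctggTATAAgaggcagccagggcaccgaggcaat

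Among the 7 promoter entries, TGATGNAA was found in that of FGF21 only, as TTGCATCA on the strand of the gene with its first base 54 bases upstream of the start. This motif was in 3.62% of all 35116 promoter entries. TATAA began 29 bases upstream of the start in GDF15, 27 bases upstream in ADM and 30 bases upstream in EDN2, and was in 14.8% of all entries. The hypoxia response element core ACGTG, searched on both strands and present in 21.4% of all entries, was in none of the 7. Nor was TGACGT, part of the cAMP response element and present on either strand in 7.98% of entries. The ADM2 entry was the richest in G and C, at 76.7% with 33 CpG dinucleotides, and the FGF21 entry had 60.0% G and C but 1 CpG, against medians of 58.7% and 14 over all entries. A match of letters is not a binding site, and these windows hold no distal element. The TATAA search was added after the values were seen.

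FGF21 had the largest relative difference of the 8 genes. It stood at 13.3 FPKM in the Indocin library, against 0.293 FPKM in the DMSO library, which is 45.6 times in FPKM. On the scale used for all genes, log2((Indocin FPKM + 1)/(DMSO FPKM + 1)), its ratio was 3.47. The added 1 FPKM holds down the ratio of genes with low values, and with 0.1 FPKM in its place the FGF21 ratio was 5.10. Of the 7 genes compared, it was the only one under 1 FPKM in the DMSO library.

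GDF15, a distant member of the TGF-beta superfamily, stood at 88.5 FPKM in the Indocin library and 19.2 FPKM in the DMSO library (log2 ratio 2.15, 4.62 times in FPKM). It was the second most abundant of the 8 transcripts in each library. ADM2 stood at 51.0 FPKM in the Indocin library and 13.0 FPKM in the DMSO library (1.89, 3.92 times). Stanniocalcin 2 (STC2), a secreted glycoprotein that inhibits the protease PAPPA, stood at 46.9 FPKM in the Indocin library and 14.8 FPKM in the DMSO library (1.60, 3.16 times). These 3 genes differed by 3 to 5 times in FPKM, and their levels in the DMSO library were well above 1 FPKM. With 0.1 FPKM added in place of 1, the ratios of GDF15, ADM2 and STC2 differed little (2.20, 1.96 and 1.66). With 5 FPKM added they were smaller, at 1.95, 1.64 and 1.39.

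VEGFA was the most abundant of the 8 in each library, at 290.3 FPKM in the Indocin library and 135.4 FPKM in the DMSO library. Its log2 ratio of 1.09 was the smallest of the 5 higher genes, but its difference of 154.8 FPKM was the largest of the 8. Summed over the 8 genes, FPKM came to 496.8 in the Indocin library and 198.8 in the DMSO library, of which VEGFA held 58.4% and 68.1%. The table gives 1 value per symbol, so the VEGFA splice forms were not resolved.

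The vasodilator apelin and the vasoconstrictor endothelin 2 differed in the other direction. APLN stood at 4.69 FPKM in the Indocin library and 11.4 FPKM in the DMSO library (-1.13, 0.411 times in FPKM). EDN2 stood at 2.02 FPKM in the Indocin library and 4.62 FPKM in the DMSO library (-0.90, 0.437 times). Both thus had similar relative differences in FPKM, and EDN2 did not reach 2-fold once 1 FPKM was added to each value, its level being lower.

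ADM was listed at 0.0505 FPKM in the Indocin library and 0.0504 FPKM in the DMSO library. At this level no difference was detectable, and ADM, with a mean under 1 FPKM, was left out of the counts. Its relative ADM2 stood at percentile 75.2 of all tested genes by mean FPKM. The order of levels in the Indocin library was VEGFA, GDF15, ADM2, STC2, FGF21, APLN, EDN2 and ADM. In the DMSO library it was VEGFA, GDF15, STC2, ADM2, APLN, EDN2, FGF21 and ADM, so FGF21 passed APLN and EDN2, and ADM2 passed STC2. No spread is at hand to say which neighbours in these orders differ.

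**Figure D1:**
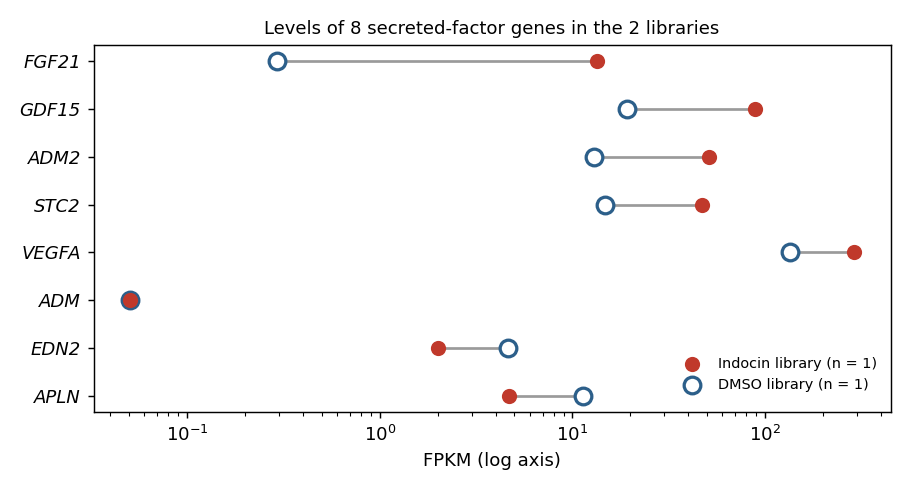
FPKM (log axis) of the 8 genes in the Indocin library (filled red) and the DMSO library (open blue), 1 library each, joined by a line per gene. FGF21 spans the widest gap (13.3 and 0.293 FPKM), the points of ADM coincide near 0.05 FPKM, and APLN and EDN2 have their Indocin point on the left.

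Against all genes the 7 measured genes lay in the tails, which follows from how they were chosen and is given as a description. Genes entered this comparison when the mean of the 2 libraries was 1 FPKM or more, short RNA genes left out. Of the 11961 such genes, 90 stood 2-fold or more above their DMSO value after Indocin (0.752%), and 5 of these were FGF21, GDF15, ADM2, STC2 and VEGFA. At least 2-fold lower were 5 genes (0.0418%), of which APLN was 1. At 1.5-fold, 262 genes were higher (2.19%) and 90 lower (0.752%), the lower ones including EDN2. Scaled to a common upper quartile, the 1.5-fold counts were 321 and 58. All tested genes had a median of -0.03 and quartiles of -0.15 and 0.11 on this scale. By rank from the highest ratio FGF21 was at 3, GDF15 at 17, ADM2 at 21, STC2 at 32 and VEGFA at 74. By rank from the lowest APLN was at 3 and EDN2 at 11.

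**Figure D2:**
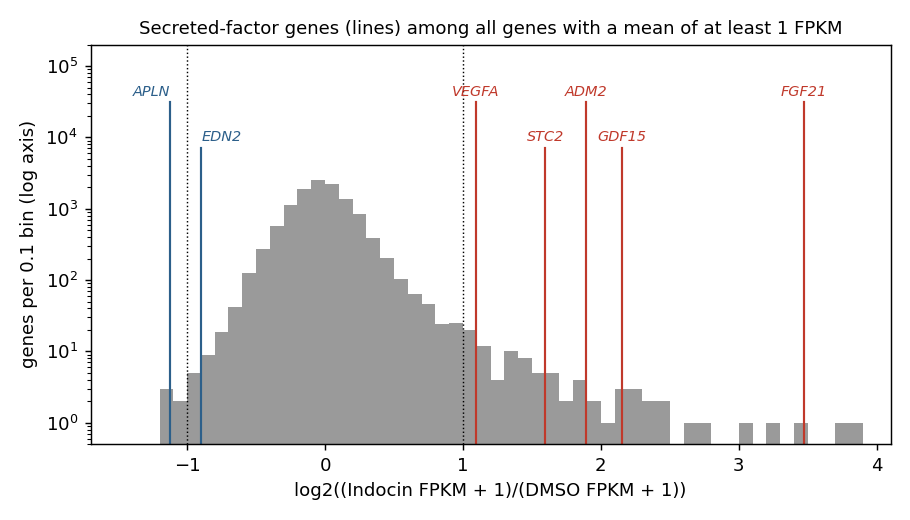
Number of genes (log axis) per bin of 0.1 in log2((Indocin FPKM + 1)/(DMSO FPKM + 1)) for the 11961 tested genes, with a line at the ratio of each of the 7 measured genes and dotted lines at 2-fold. The bulk lies around the median of -0.03, FGF21 stands at 3.47, and APLN (-1.13) lies beyond the lower dotted line with EDN2 (-0.90) just inside it.

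The genes with the pair of values most like each of the 7 were found by the distance between log2(FPKM + 1) values over the 2 libraries, a likeness that rests on 2 points. Nearest to ADM2 was STC2, at a distance of 0.21, and nearest to STC2 was ADM2. Nearest to GDF15 was DDIT3, the stress transcription factor CHOP, at 0.33 (105.4 FPKM in the Indocin library and 22.5 FPKM in the DMSO library). VEGFA lay closest to the unfolded protein response factor XBP1, at 0.22, and then to the serine hydroxymethyltransferase SHMT2, at 0.37. FGF21 had no close match, the nearest being the long noncoding RNA LINC01133 at 0.77 and FAM129A at 1.01. The next nearest were ATF3 for ADM2 (0.36), CLIC4 for STC2 (0.22) and TSC22D3 for GDF15 (0.50). For APLN they were PHF19 (0.31) and TUBA3D (0.33), and for EDN2 RASL11A (0.24) and CAMKV (0.25).

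Most receptors for these factors had a mean under 1 FPKM in the same cells. The FGF21 co-receptor KLB was at 0.842 FPKM in the Indocin library and 0.768 FPKM in the DMSO library, and the FGF receptors FGFR1 (-0.22), FGFR3 (-0.21) and FGFR4 (-0.03) had log2 ratios slightly below 0. FGFR2 was at 0.861 FPKM in the Indocin library and 0.441 FPKM in the DMSO library, under the minimum mean. For GDF15, GFRAL was listed at 0 in both libraries and RET at 0.0484 FPKM in the Indocin library and 0.114 FPKM in the DMSO library. The calcitonin-like receptor CALCRL, through which ADM and ADM2 act, was listed at 0 in both, as were its partners RAMP2 and RAMP3, while RAMP1 stood at 78.7 FPKM in the Indocin library and 78.4 FPKM in the DMSO library. The VEGF receptor KDR was at 0 in both and FLT1 at 0.0180 and 0.00897 FPKM in the Indocin and DMSO libraries. The co-receptor NRP1 was at 17.2 FPKM in the Indocin library and 16.3 FPKM in the DMSO library, and NRP2 at 0.125 and 0.304 FPKM. The apelin receptor APLNR and the endothelin receptor EDNRA were at 0 in the Indocin library and at 0.00830 and 0.0189 FPKM in the DMSO library, and EDNRB was at 0 in both. A listed 0 can be a failed estimate and is not read as absence.

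Relatives of the 8 genes mostly differed little, with exceptions in 2 families. Of 29 FGF ligands, receptors and co-receptors, 5 reached the minimum mean, and FGF21 was the only one past 1.5-fold (median -0.21, range -0.30 to 3.47). FGF21 was the only FGF ligand with a mean of at least 1 FPKM, which it reached only through the Indocin library. In the DMSO library it stood at 0.293 FPKM, below FGF11 (0.590 FPKM) and FGF13 (0.414 FPKM). The decoy receptor FGFRL1 was the most abundant of the list (58.4 FPKM in the Indocin library and 72.1 FPKM in the DMSO library). Of 6 genes of the stanniocalcins and their protease targets 2 were measured. The paralog STC1 stood at 3.93 FPKM in the Indocin library and 3.49 FPKM in the DMSO library (0.13), beside 1.60 for STC2. Of the 10 VEGF family genes and receptors 4 were measured. VEGFB (-0.24) and PGF (-0.11) differed by less than 1.5-fold, and VEGFC was listed at 0 in both libraries. APLN was the only 1 of 4 apelin system genes measured. Of 8 endothelin system genes 4 were measured, all with ratios below 0 as deposited, where 55.2% of all tested genes lay at or below 0. After scaling to a common upper quartile 1 of the 4 was above 0. EDN1 (0.0856 and 0.0560 FPKM in the Indocin and DMSO libraries) and EDN3 were under the minimum mean. The endothelin-converting enzymes ECE1 (-0.15) and ECE2 (-0.20) and the endopeptidase MME (-0.05) differed by less than 1.5-fold.

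In the TGF-beta superfamily, 12 of 35 listed genes were measured, 3 of them 1.5-fold or more higher and 0 lower by that much. The shares over all tested genes were 2.19% higher and 0.752% lower. The 12 had a median of 0.04. Beside GDF15 the 3 higher genes were INHBE and INHBC, which encode activin subunits known mainly from liver. INHBE stood at 3.16 FPKM in the Indocin library and 0.126 FPKM in the DMSO library (1.89, 25.1 times in FPKM). Its mean reached 1 FPKM only through the Indocin library. INHBC, its neighbour on the chromosome, stood at 4.44 FPKM in the Indocin library and 1.71 FPKM in the DMSO library (1.003). Under a minimum mean of 5 FPKM, GDF15 was the only 1 gene of the list past 1.5-fold. INHBB (-0.04), GDF11 (-0.18) and BMP7 (0.12) differed little, and BMP8A, whose reads may be shared with its paralog BMP8B, had a ratio of 0.45.

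In the calcitonin family, CALCA, which encodes calcitonin and the vasodilator CGRP, stood at 2.75 FPKM in the Indocin library and 0.0491 FPKM in the DMSO library (1.84). Its adjacent paralog CALCB stood at 1.11 FPKM in the Indocin library and 0.266 FPKM in the DMSO library, with a mean under 1 FPKM. These 2 genes are similar in sequence and can share reads. ADM2 and CALCA were the 2 of 5 measured genes of the list past 1.5-fold, the others being RAMP1, CRCP (-0.08) and ADM5 (-0.40), and the list median was 0.01. FGF21, INHBE and CALCA, set side by side after their values were seen, shared a DMSO value under 0.3 FPKM and an Indocin value of at least 2 FPKM. Each thus reached the minimum mean only through the Indocin library, where it was high. Under a minimum mean of 5 FPKM, ADM2 was the only 1 gene of the calcitonin list past 1.5-fold.

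Enzymes that cut and finish peptide precursors had small ratios, mostly above 0. Of 15 prohormone processing genes 10 were measured, with 9 ratios above 0 and 1 below under each scaling tried and a median of 0.18. Over all tested genes, 55.2% of ratios lay at or below 0 as deposited. The convertase FURIN, which cuts many secreted precursors after basic residues, was the only one of the 10 past 1.5-fold. FURIN stood at 18.8 FPKM in the Indocin library and 11.2 FPKM in the DMSO library (0.70). The share of all tested genes that much higher was 2.19%. PAM, which amidates the end of peptides such as adrenomedullin, stood at 2.32 FPKM in the Indocin library and 1.90 FPKM in the DMSO library (0.20). The neuroendocrine convertases PCSK1 and PCSK2 were listed at 0 in both. CTSL (0.12), MBTPS1 (0.09) and PCSK1N (0.11) were the most abundant of the list.

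Among 46 other vasoactive or angiogenic secreted factors 14 were measured, with a median of -0.07. Angiotensinogen, AGT, stood at 1.84 FPKM in the Indocin library and 0.498 FPKM in the DMSO library (0.92). Its mean reached 1 FPKM only through the Indocin library. The natriuretic peptide NPPC stood at 36.1 FPKM in the Indocin library and 56.9 FPKM in the DMSO library (-0.64), and thrombospondin 1, THBS1, an inhibitor of vessel growth, at 13.8 FPKM in the Indocin library and 21.3 FPKM in the DMSO library (-0.59). After scaling to a common upper quartile neither NPPC nor THBS1 was past 1.5-fold. EFNA1 (-0.09) and TYMP (0.11) were abundant and differed little. Among 24 stress-induced cytokines and growth factors 6 were measured, and the chemokine CCL20 was the only one past 1.5-fold (13.7 FPKM in the Indocin library and 3.78 FPKM in the DMSO library, 1.62). MIF (-0.11) and HBEGF (0.01) differed little.

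**Figure D3:**
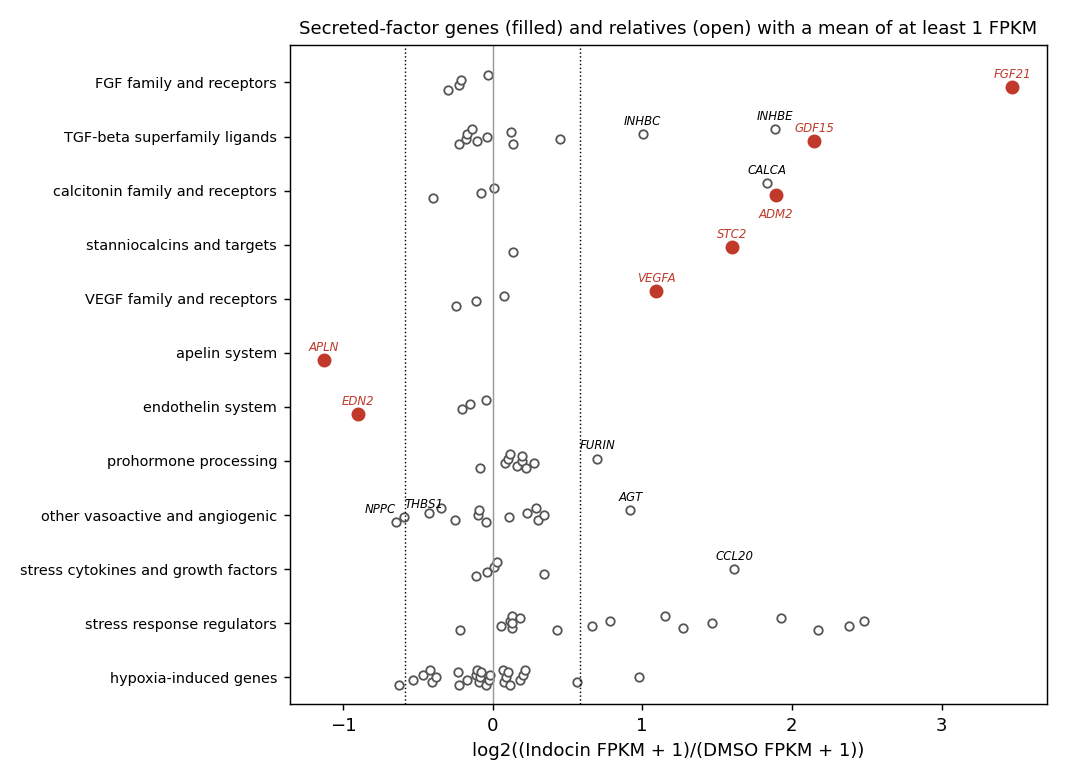
Log2((Indocin FPKM + 1)/(DMSO FPKM + 1)) of each gene at a mean of 1 FPKM or more in 12 lists, 1 list per row, with the secreted-factor genes filled red, other genes open, and dotted lines at 1.5-fold. FGF21, STC2, VEGFA, APLN and EDN2 are the only points of their rows beyond the dotted lines, while INHBE (1.89) and INHBC (1.003) stand with GDF15 and CALCA (1.84) with ADM2. FGF21, INHBE and CALCA reached a mean of 1 FPKM only through the Indocin library.

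The regulators named above as background were measured in the same libraries. Of 17 regulators of the integrated stress response and the unfolded protein response, 9 stood 1.5-fold or more higher and 0 lower by that much. The shares over all tested genes were 2.19% higher and 0.752% lower. The 17 had a median of 0.66, against -0.03 over all genes. ATF4 stood at 689.0 FPKM in the Indocin library and 283.9 FPKM in the DMSO library (1.28). The others past 1.5-fold were TRIB3 (2.48), ATF3 (2.38), DDIT3 (2.18), NUPR1 (1.92), CEBPB (1.47), CEBPG (1.15), XBP1 (0.78) and ERN1 (0.66), while the chaperone HSPA5 stood at 0.13. The eIF2alpha kinases EIF2AK1 (0.13), EIF2AK2 (0.06), EIF2AK3 (0.11) and EIF2AK4 (-0.22) were not past it. Whether these regulators have a part in the values of the 8 genes was not tested.

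Most measured hypoxia genes other than VEGFA differed by less than 1.5-fold. Of 27 measured hypoxia-induced genes other than the 8 genes themselves, 10 ratios were positive and 17 negative, and 13 were positive and 14 negative after scaling to a common upper quartile. The 27 genes had a median of -0.07, against -0.03 over all tested genes. Of all tested genes, 55.2% had a ratio of 0 or below as deposited. The lipoprotein receptor VLDLR was the only one 1.5-fold higher as deposited (0.98), with TMEM45A (0.57) joining it under each rescaling. The carbonic anhydrase CA12 was the only one as much lower (-0.63), though not after scaling to a common upper quartile. The shares over all tested genes were 2.19% higher and 0.752% lower. The glycolytic regulator PFKFB3 (-0.53), ANKRD37 (-0.47), the prolyl hydroxylase EGLN3 (-0.42) and NDRG1 (-0.40) differed by less than 1.5-fold but lay below the lower quartile of all genes (-0.15). The most abundant were ALDOA (-0.11), ENO1 (-0.23) and LDHA (-0.38). The hypoxia factor HIF1A stood at 26.8 FPKM in the Indocin library and 24.8 FPKM in the DMSO library (0.11), and VHL (0.18) and EGLN2 (0.07) also differed by less than 1.5-fold, as did the other measured genes of 8 hypoxia factors. Among 9 measured factors known to act on FGF21 or GDF15 none was past 1.5-fold, with 7 ratios above 0 and 2 below as deposited. These 9 had a median of 0.30, against -0.03 over all tested genes. Whether they have a part in the values of FGF21 or GDF15 was not tested. NFE2L2 stood at 0.34, PPARA at 0.06, PPARG at 0.47 and RXRA at -0.19.

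Genes next to the 8 on the chromosome were compared by the order of protein-coding genes in RefSeq, with 2 listed genes on each side. Of 32 such neighbours 22 were measured, 2 of them higher by 1.5-fold or more and 0 lower by that much. Over all tested genes, 2.19% were that much higher and 0.752% that much lower. FUT1, a fucosyltransferase and the nearest gene on 1 side of FGF21, stood at 9.07 FPKM in the Indocin library and 3.66 FPKM in the DMSO library (1.11). BCAT2, on the other side of FGF21, had a ratio of -0.14. PGPEP1, a peptidase gene next to GDF15, stood at 9.47 FPKM in the Indocin library and 5.13 FPKM in the DMSO library (0.77). The measured neighbours of ADM2, STC2, VEGFA, APLN and EDN2 lay between -0.43 (FOXO6, beside EDN2) and 0.29 (CPEB4, near STC2). The only gene that RefSeq places over one of the 8 is MIR3189, within GDF15, a short RNA gene of the kind left out of the comparison. The neighbour comparison was chosen after other values were known.

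**Figure D4:**
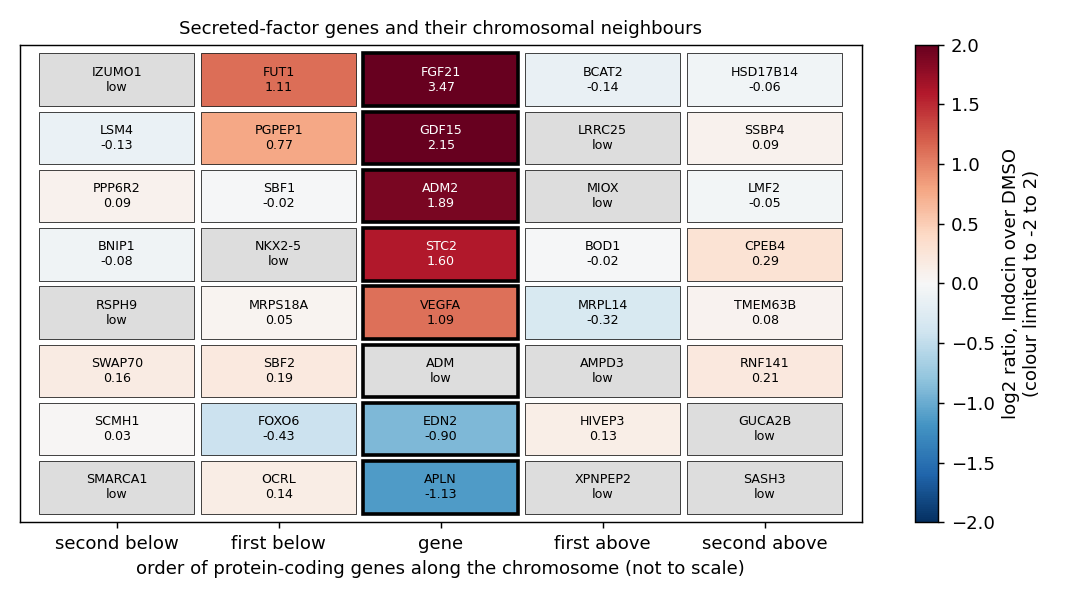
Log2 ratio (Indocin over DMSO, number and colour) of the 8 genes (centre column, thick frames) and of the 2 nearest listed protein-coding genes on each side in chromosomal order, not to scale, with grey cells for genes with a mean under 1 FPKM. FUT1 (1.11) beside FGF21 and PGPEP1 (0.77) beside GDF15 are the only neighbours past 1.5-fold.

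Markers of the labelled cell type had far higher sums than those of vessel cells, most of whose FPKM came from EGFL7. All 10 prostate luminal markers were measured, with sums of 1791 FPKM in the Indocin library and 2225 FPKM in the DMSO library. KRT18 (-0.19) and KRT8 (-0.30) were among the most abundant. The 11 endothelial markers summed to 24.6 FPKM in the Indocin library and 25.9 FPKM in the DMSO library, of which EGFL7 held 23.1 and 24.6 FPKM. VWF stood at 0.652 FPKM in the Indocin library and 0.395 FPKM in the DMSO library, and ESAM at 0.666 FPKM in the Indocin library and 0.447 FPKM in the DMSO library. The defining markers PECAM1 and KDR were listed at 0 in both, and CDH5 was at 0.00602 FPKM in the Indocin library and 0.00598 FPKM in the DMSO library. Fibroblast markers summed to 5.11 FPKM in the Indocin library and 4.73 FPKM in the DMSO library, nearly all COL1A1, with DCN and PDGFRA listed at 0 in both. Leukocyte markers summed to 6.47 FPKM in the Indocin library and 7.36 FPKM in the DMSO library, nearly all CD68, with CD3E listed at 0 in both. Neuroendocrine markers summed to 32.5 and 33.9 FPKM in the Indocin and DMSO libraries, nearly all ENO2, with INSM1 listed at 0 in both.

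A pseudocount cannot change the sign of a ratio, so only sizes could differ between 0.1, 1 and 5 FPKM. The sizes of the 7 ratios differed most for FGF21 and EDN2. FGF21 lay between 1.79 with 5 FPKM and 5.10 with 0.1 FPKM. EDN2 lay between -0.45 and -1.16 and APLN between -0.76 and -1.27. VEGFA, with the highest level, lay between 1.07 and 1.10. With 5 FPKM, GDF15 (1.95) was above FGF21.

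**Figure D5:**
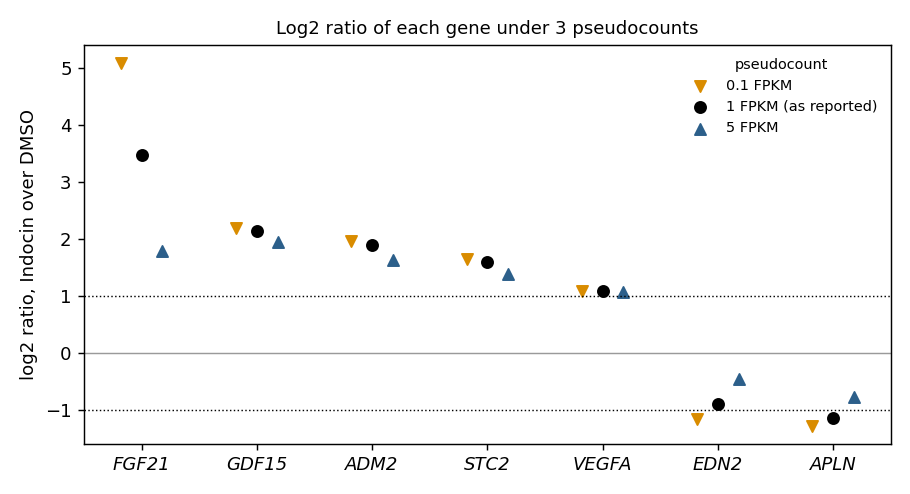
Log2 ratio (Indocin over DMSO) of the 7 measured genes with 0.1, 1 or 5 FPKM added to each value, dotted lines at 2-fold. FGF21 spreads from 1.79 to 5.10, VEGFA stays near 1.09, and APLN and EDN2 cross the lower dotted line with the pseudocount.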

How the data were processed

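The libraries were made with a stranded mRNA kit from TRIzol total RNA, per the labels' protocols. Per the file headers, the authors deposited 1 FPKM value per gene symbol with a status, OK on every line. Builds GRCh37 and hg19 and the tools bcl2fastq, TopHat, Cuffnorm, Cufflinks and StringTie are named in the submitters' processing notes. Tool versions and roles, annotation and strand setting were not given in the sources used here. FPKM scales by length and library size, keeps no absolute read depth, and splits reads between paralogs by estimate.

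From the deposited FPKM, log2((Indocin + 1)/(DMSO + 1)) was computed in Python 3.11.15 with pandas 2.3.3, for genes at a mean of 1 FPKM or more, without 2066 short RNA symbols. FPKM summed to 583096 in the Indocin library and 617510 in the DMSO library, and 12078 and 11935 genes had at least 1 FPKM. For 1332 genes under 0.05 FPKM, 50.5% of ratios lay within 1% of 1.01 times a ratio of whole numbers up to 5, against a median of 6.68% over other factors, so relative depth was nearly equal. The absolute number of reads is unknown, so no counting interval is given. No test was possible with 1 library per group. A gene was counted at 2-fold or 1.5-fold on the log2(FPKM + 1) scale.

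The 8 genes and the gene lists were chosen with earlier results of these data known. Named were the 8, their receptors and paralogs, genes of each list past 1.5-fold, its 3 most abundant, and the 2 nearest in level to each of the 8. Promoters and gene order came from RefSeq (GRCh38.p14), by symbol, another build than that of the files. The calculation was tested on simulated data. Alternatives were other pseudocounts, filters and scalings, and short RNA genes kept. Some genes of the lists are not reported here by name.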

Additional observations from a re-analysis of the deposited data

How the results depend on the processing

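Over 8 alternatives, FGF21, GDF15, ADM2, STC2 and VEGFA were at least 2-fold higher in every setting. None of 55 recomputed ratios of the 7 genes changed sign, but only the rescalings could have changed one. Filters, and keeping short RNA genes, leave each ratio as it was, and a pseudocount cannot change its sign. Of these 55, 9 moved by more than 0.13 (0.5 times the interquartile range of all genes), each with another pseudocount. Genes of the 8 at least 2-fold lower numbered 2 with a pseudocount of 0.1 FPKM and 0 with 5 FPKM, against 1. At 1.5-fold the lower ones numbered 1 with 5 FPKM and 1 under a minimum mean of 5 FPKM, against 2, since that filter takes out EDN2. Over all genes, with a pseudocount of 0.1 FPKM 22 were 2-fold lower, 420 were 1.5-fold higher and 189 lower. With 5 FPKM 41 were 2-fold higher, 0 were 2-fold lower, 126 were 1.5-fold higher and 36 lower. Under a minimum mean of 5 FPKM 3 were 2-fold lower and 168 were 1.5-fold higher, fewer genes being tested. With the same upper quartile 58 were 1.5-fold lower, and with short RNA genes kept 42 were 2-fold lower. The same upper quartile moved the median of all genes to 0.04, against -0.03. Of 608 recomputed counts of the gene lists, 62 moved by over 1.5 times. No paired analysis was possible because each group had 1 library. No difference was detectable for ADM, the absolute depth is unknown, and the lack of replicates limits every value.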
